A study of Drosophila melanogaster with 2 samples.

Results

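Binding of the transcription factor Daughterless near 10 early segmentation genes was described: the gap genes hb, Kr, kni and gt, the pair-rule genes eve, ftz, h and odd, and the segment polarity genes en and wg. They are 10 of the 13945 protein-coding genes on the chromosome arms of Drosophila melanogaster. All 10 were found in the annotation, with h under its other symbol, hry. For each gene, every deposited region with a summit in the gene's span or within 10 kb of either end was taken, 58 pooled regions in all.

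The samples were whole embryos, 0 to 24 h old and of mixed sex, from 1 fly strain, da-GFP, that stably expresses daughterless (da) with GFP at its C terminus. Chromatin sheared to 200 to 800 bp was precipitated with an antibody against GFP and sequenced (ChIP-seq), in 1 group of 2 biological replicates that the labels number 2 and 3. No other genotype, stage or treatment was compared. Such collections mix all tissues and the whole of embryogenesis, so the cells and hours in which these genes are active make up an unknown part of them, and the GFP antibody reads only the tagged protein.

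The segmentation genes act in a cascade that divides the embryo along its head-to-tail axis. Maternal gradients set the broad domains of the gap genes, gap proteins place the stripes of the pair-rule genes, and pair-rule proteins switch on the segment polarity genes, which hold the segment borders. Nearly all of these genes encode transcription factors and are controlled by enhancers spread over the DNA around them. Daughterless is the fly's E protein, a basic helix-loop-helix (bHLH) factor that pairs with tissue-specific bHLH factors and recognises the E-box, CANNTG.

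Each replicate, and the 2 replicates pooled, had a deposited list of 30000 candidate regions, called relaxed because background stands in it beside peaks. A thresholded list held 1941 regions, which were the first 1941 of the pooled list by signal, from 877 down to 64.2 with a median of 88.2. The signal is the height over control that the authors' caller gave a region. It serves here to rank regions within a list and, for matched regions, to set the replicates side by side. Rank 1 is the highest region. The lowest signals listed were 18.1 in the pooled list, 9.32 in replicate 2 and 11.3 in replicate 3, so the scales of the lists differ. Depth is unknown, since these are lists of regions without reads. A −log10 q of at least 2 was reached by 3568 regions of replicate 2 and 2964 of replicate 3.

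Of the 10 segmentation genes, 2 had a thresholded region in the span or within 10 kb, en and eve, against 5529 of all 13945 genes (39.6%). Only the region of en had the gene itself as the nearest transcription start site (TSS). The best pooled regions of the others ranked between 2406 for h and 11227 for hb, so the members nearest to the end of the thresholded list were eve, inside it at rank 1637, and h, outside it. The median best rank was 3906 over the 10 genes and 2635 over all genes with a region. By role, it was 8937 for the 4 gap genes, 2721.5 for the 4 pair-rule genes and 1857 for the 2 segment polarity genes. The groups by role overlapped in the pooled list: gt, a gap gene, ranked above ftz, a pair-rule gene. Replicate 3 had the same order, and replicate 2 the reverse, with gt at 10682 and ftz at 7050.

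**Figure D1:**
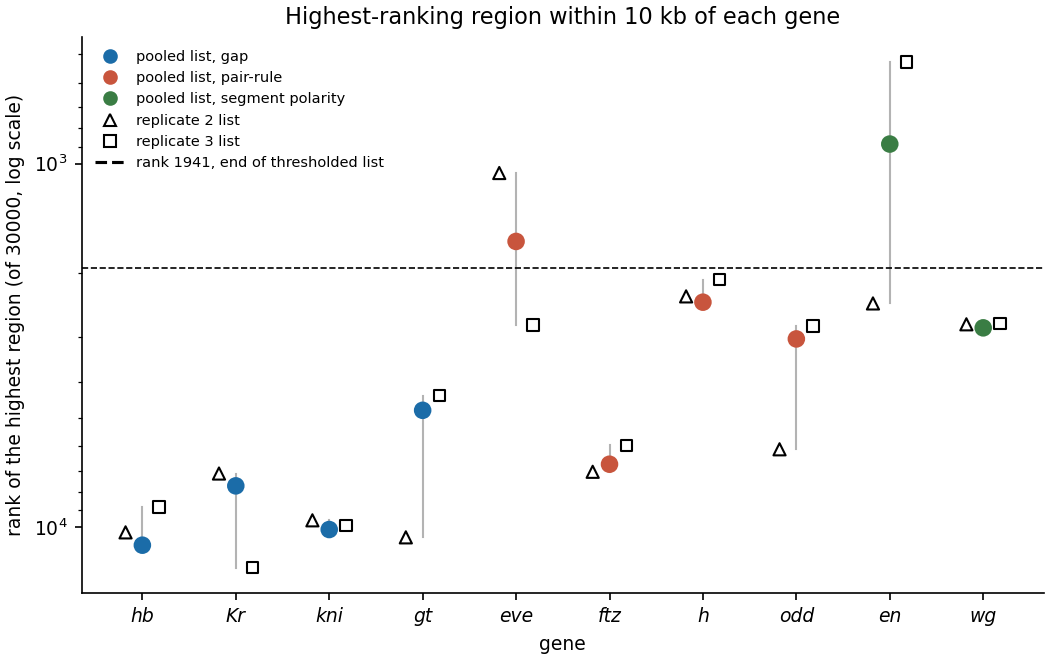
Rank of the highest region within 10 kb of each gene, on an inverted log axis, with a filled circle for the pooled list, a triangle for replicate 2 and a square for replicate 3. In the pooled list, en at 883 and eve at 1637 lie above the dashed line at rank 1941, and the other 8 genes lie below it.

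Within 10 kb, 3 of the 4 gap genes (hb, kni and Kr) had the lowest-ranking best regions of the 10 genes. This rested on the window: within 20 kb the best rank was 2273 for hb and 2434 for kni, and the median was 3604.5 for the gap genes, 2401.5 for the pair-rule genes and 1857 for the segment polarity genes. Gap genes encode transcription factors expressed in broad bands of the early embryo, and loss of one deletes a run of neighbouring segments. The gene hb (FBgn0001180, chromosome 3R, 8690980 to 8697822, minus strand), a zinc finger factor of the anterior, had 7 pooled regions. Its best ranked 11227 with a signal of 28.8 and lay 7542 bp beyond the 3′ end of the gene, nearer to the TSS of CG44227. Replicate 2 listed it with a signal of 15.5 at rank 10350, and replicate 3 listed no summit within 200 bp. The region nearest to a TSS of hb itself ranked 11386 with a signal of 28.7, in the 5′ untranslated region, and was listed by replicate 3 with 18.0 and not by replicate 2. None of the 7 regions of hb was found in both replicates.

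Kr (FBgn0001325, chromosome 2R, 25226611 to 25231394, plus strand), a zinc finger factor of the central embryo, had 1 pooled region, the lowest number among the 10 genes. It ranked 7708 with a signal of 33.9 and lay in the 3′ untranslated region of Kr, with 15.2 in replicate 2 and 16.6 in replicate 3. Replicate 2 listed 8 regions around Kr and replicate 3 listed 1, so the replicates differed more in number here than in the signal of the shared region. The whole window of Kr lies inside the span of another gene, CG9380.

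The gene kni (FBgn0001320, chromosome 3L, 20692330 to 20695378, minus strand) encodes an orphan nuclear receptor of the posterior abdomen and had 4 pooled regions. Its best, 5573 bp upstream, ranked 10166 with a signal of 30.1, with 12.4 in replicate 2 and 18.5 in replicate 3. In the list of replicate 2 alone the highest region lay elsewhere, 7589 bp from a TSS on the downstream side, at rank 9589. The highest regions of kni therefore had different positions in the 2 replicates at nearly the same rank.

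The gene gt (FBgn0001150, chromosome X, 2427113 to 2428967, minus strand) encodes a bZIP factor that represses at the borders of eve stripes. Of its 2 pooled regions, the higher ranked 4775 with a signal of 42.0 and lay 6242 bp upstream. It had 15.3 in replicate 2, at rank 10682, and 25.3 in replicate 3, at rank 4348. It was the only region of a gap gene with a q of 0.05 or less (−log10 q 1.43). The 101 bp at the best summits of kni and gt are printed to show where an E-box stood in one and none in the other. They are from the Release 6 assembly (RefSeq), whose coordinates dm6 uses, on the plus strand, with E-boxes in capitals.
kni, rank 10166 (chr3L:20700901-20701001): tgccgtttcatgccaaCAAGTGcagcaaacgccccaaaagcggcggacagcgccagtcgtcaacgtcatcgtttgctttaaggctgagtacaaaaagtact
gt, rank 4775 (chrX:2435159-2435259): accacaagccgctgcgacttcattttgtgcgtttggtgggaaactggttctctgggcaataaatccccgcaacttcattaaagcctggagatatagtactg

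The pair-rule genes, each active in a series of stripes, ran from rank 1637 to rank 6720. At eve (FBgn0000606, chromosome 2R, 9979319 to 9980795, plus strand), which encodes a homeodomain repressor, the 3 highest of 5 regions were nearer to other genes. The thresholded region, rank 1637 with a signal of 69.3, lay 8222 bp beyond the gene and 142 bp upstream of a TSS of TER94, which encodes an AAA ATPase. Its signals were 31.9 in replicate 2 and 30.4 in replicate 3. The next, rank 2219 with a signal of 60.1, lay 29 bp upstream of a TSS of CG12134 and was uneven, with 41.6 in replicate 2 and 18.0 in replicate 3. The best region nearest to the TSS of eve ranked 15495 with a signal of 25.1, 1752 bp upstream. It had 9.61 in replicate 2 and 14.8 in replicate 3. The place of eve in the thresholded list thus came from a region at the promoter of a neighbour.

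The gene ftz (FBgn0001077, chromosome 3R, 6864324 to 6866244, plus strand), a homeodomain activator named for its loss of alternate segments, had 5 pooled regions, all beyond its 3′ end. The best ranked 6720 with a signal of 35.9, 3284 bp beyond the gene. It had 10.7 in replicate 2 and 22.3 in replicate 3, 1.06 apart on the log2 scale. In the list of replicate 2 that region ranked 23387, and the highest region of the window ranked 7050.

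The gene h (hry, FBgn0001168, chromosome 3L, 8675759 to 8679253, plus strand) encodes Hairy, itself a bHLH protein and a repressor. It had 12 pooled regions, the most of the 10 genes, and 22.3% of all genes had as many or more. Per 10 kb there were 5.11 at h, against 2.24 over all arms. The best ranked 2406 with a signal of 57.6, 4723 bp beyond the end of the gene, with 29.5 in replicate 2 and 31.1 in replicate 3. The replicates gave it nearly the same rank, 2319 in replicate 2 and 2615 in replicate 3. An intronic region ranked 5457 with a signal of 39.4 (16.5 in replicate 2 and 24.7 in replicate 3). A region 3037 bp upstream ranked 5482 with a signal of 39.3 (23.2 in replicate 2 and 14.6 in replicate 3). These regions were thus higher in opposite replicates. The highest region around h in replicate 3 was another, 263 bp upstream of a TSS in the pooled list, with 34.3 at rank 2085. Replicate 2 did not list that region, and its pooled rank was 17082. A thresholded region with a TSS of h as the nearest lay just outside the window, 10.6 kb beyond the gene, at rank 1766 with a signal of 66.9.

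The gene odd (FBgn0002985, chromosome 2L, 3604224 to 3606756, minus strand) encodes a zinc finger repressor and had 9 pooled regions. The best ranked 3037 with a signal of 51.9, 5506 bp beyond the 3′ end of the gene, with 19.4 in replicate 2 and 30.3 in replicate 3. It was the highest region around odd in both replicates, at rank 6113 in replicate 2 and 2795 in replicate 3. The other 8 ranked from 11619 downwards, so 1 region stood apart from the rest. The best regions of ftz, h and odd are printed below with that of odd that holds CAGCTG, the E-box form most frequent at the thresholded regions. That last one, 553 bp upstream of odd, ranked 17706 and was listed by neither replicate within 200 bp. Capitals again mark E-boxes, and a form on the minus strand appears as its reverse complement, as does CACATG at h.
ftz, rank 6720 (chr3R:6869478-6869578): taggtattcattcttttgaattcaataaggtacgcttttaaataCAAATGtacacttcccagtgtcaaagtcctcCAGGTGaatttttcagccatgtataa
h, rank 2406 (chr3L:8683926-8684026): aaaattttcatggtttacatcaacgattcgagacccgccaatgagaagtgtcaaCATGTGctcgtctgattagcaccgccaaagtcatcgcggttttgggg
odd, rank 3037 (chr2L:3598668-3598768): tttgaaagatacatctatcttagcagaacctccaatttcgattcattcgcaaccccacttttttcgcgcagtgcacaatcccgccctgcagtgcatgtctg
odd, rank 17706 (chr2L:3607259-3607359): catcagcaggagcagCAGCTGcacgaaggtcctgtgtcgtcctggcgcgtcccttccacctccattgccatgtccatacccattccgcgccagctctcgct

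**Figure D2:**
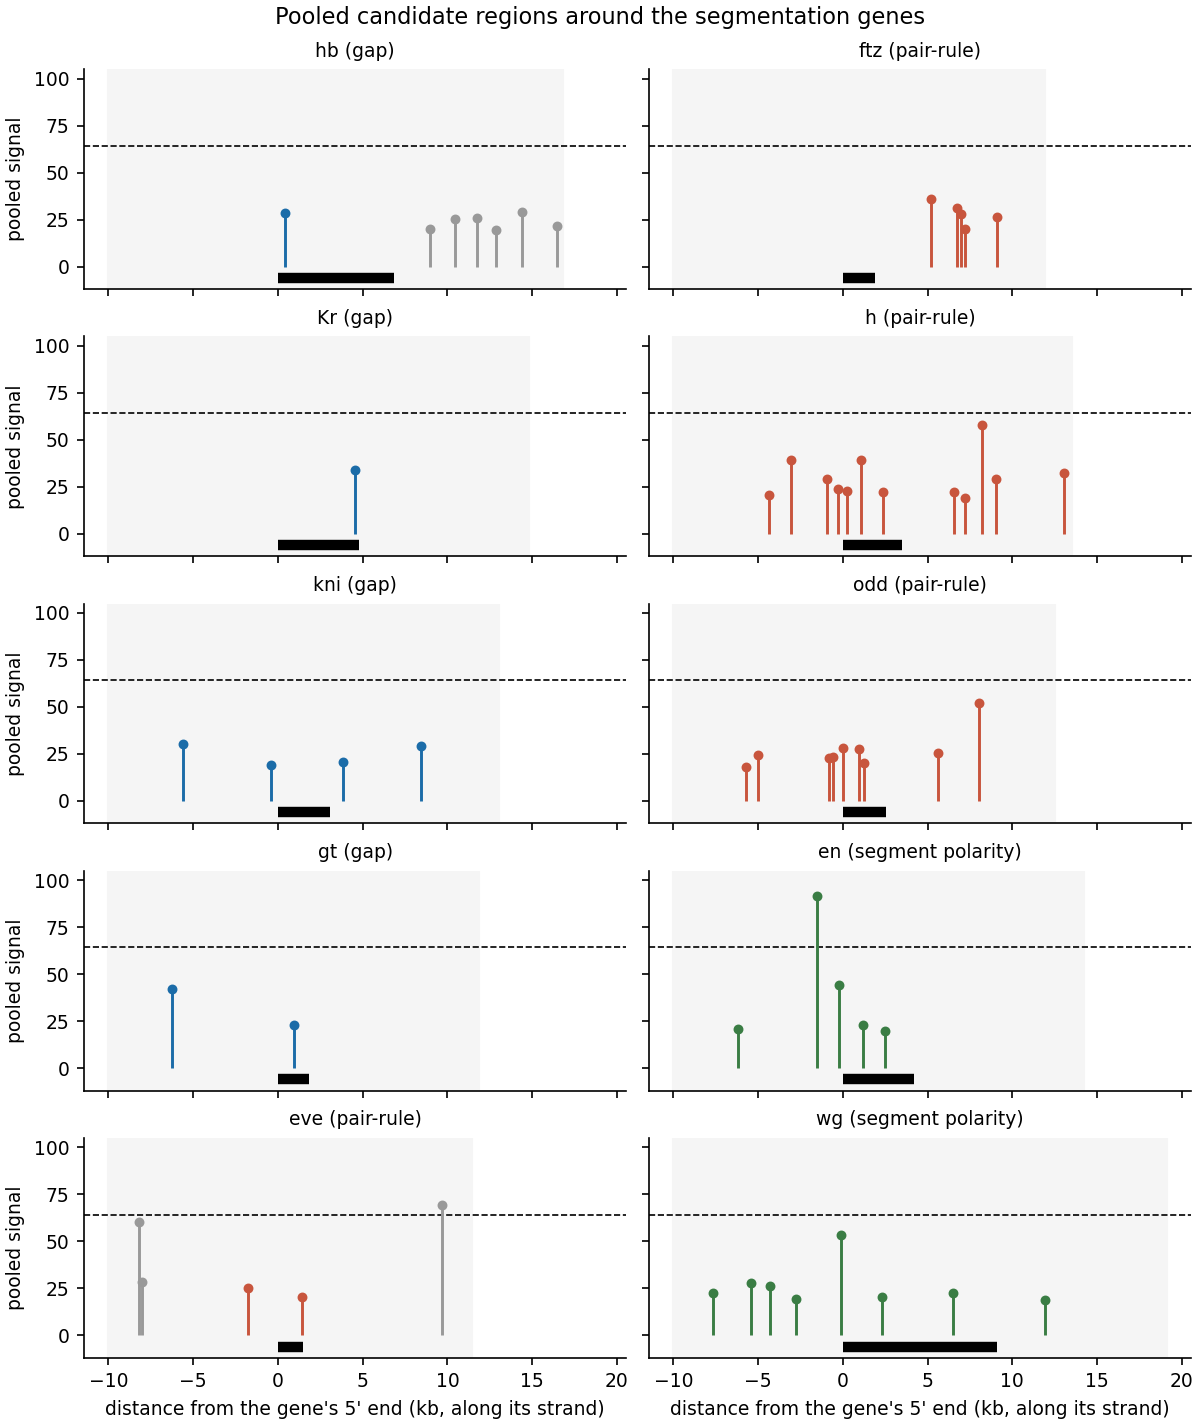
Pooled regions around each gene by distance from the gene's 5′ end along its strand (kb, horizontal) and pooled signal (vertical), with the gene as a black bar, its window shaded and the lowest thresholded signal, 64.2, as a dashed line. Coloured stems are regions whose nearest TSS is that of the gene and grey stems are nearer to another gene; of the stems above the line, that of en is coloured and that of eve is grey.

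The segment polarity genes held the highest region that was nearest to a segmentation gene's own TSS, that of en. The gene wg (FBgn0284084, chromosome 2L, 7307159 to 7316265, plus strand), which encodes the secreted Wnt ligand expressed in the row of cells next to the en stripe, had 8 pooled regions. Its best lay 97 bp upstream of the TSS and ranked 2831 with a signal of 53.5. The replicates gave it 27.4 in replicate 2 and 27.1 in replicate 3, the smallest gap among the best regions. In the pooled list and in replicate 2 it was the only best region within 500 bp of a TSS of its gene. In replicate 3 alone that place was held by a region of h. Replicate 3 also listed an intronic region with 30.5, at rank 2755, that replicate 2 did not list and that ranked 20006 in the pooled list. The window at the wg promoter is printed because it is the highest promoter region of the 10 genes, and it has no capitals since no E-box stood in it.
wg, rank 2831 (chr2L:7307012-7307112): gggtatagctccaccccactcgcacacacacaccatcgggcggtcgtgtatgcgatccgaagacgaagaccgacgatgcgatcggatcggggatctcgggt

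The gene en (FBgn0000577, chromosome 2R, 11524006 to 11528210, minus strand), which encodes the homeodomain factor of posterior compartments, had a thresholded region 1543 bp upstream, the side on which its Polycomb response elements are known. It ranked 883 with a signal of 91.8. The signal was 29.0 in replicate 2, at rank 2425, and 62.2 in replicate 3, at rank 525. Replicate 3 was thus the higher by 1.10 on the log2 scale, the widest gap in that direction among the matched regions of the 10 genes. A region at the promoter, 203 bp upstream, ranked 4247 with a signal of 44.2 and was even, with 22.6 in replicate 2 and 24.0 in replicate 3. The other 3 regions of en ranked from 18618 downwards.

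No promoter of the 10 segmentation genes held a thresholded region. A pooled region within 500 bp of a TSS of the gene was present for 6 of the 10 genes (hb, kni, h, odd, en and wg), against 51.6% of all genes. The best such regions ranked 2831 at wg, 4247 at en, 11386 at hb, 11619 at odd, 17082 at h and 27718 at kni. A thresholded region within that distance was present for 0 of the 10 and for 10.3% of all genes. With thresholded summits assigned to the nearest TSS at any distance, 2 of the 10 genes were named, en and h, against 11.2% of all genes. For these measures, 10 genes are too few to set the counts apart from the shares over all genes. The absence of a thresholded region at the promoters is therefore a description of the 10 and not a difference from other genes.

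The surroundings of these genes differed from those of most genes, a comparison chosen after the data were seen. No other gene's TSS lay in the window of 7 of the 10 (Kr, kni, ftz, h, odd, en and wg). The windows of hb and gt held 1 other gene's TSS and that of eve held 2, against a median of 5 over all genes. Apart from Kr, whose window lies within another gene, from 68.7% (wg) to 91.2% (ftz) of each window lay outside annotated genes. Among all 649 genes with no other TSS in the window, 72 (11.1%) had a thresholded region, and among genes with 5 or more it was 49.5%. Of the 7 segmentation genes in that class, 1 had a thresholded region, en. The part of the surroundings in the count of 2 of 10 was not tested.

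Set against genes with as few neighbours, most of the 10 ranked higher than the middle gene. The 7 genes with no other TSS in the window had a median best rank of 3037, against 8436 over the 485 of 649 such genes that had any region, while the other 164 had none. Of the 7, 6 ranked above that median, and kni at 10166 ranked below it. A best rank as high as that of en was reached by 6.47% of the 649 genes, against 22.9% of all genes. For h it was 14.5% of the 649 genes and 44.7% of all genes. For wg it was 16.5% of the 649 genes and 48.6% of all genes. The share of the 649 was 17.7% for odd, 31.1% for ftz, 34.8% for Kr and 42.2% for kni. The last stands below the median above because that median leaves out genes without a region. The gap gene hb, with 1 other TSS in its window, was matched or passed by 59.8% of the 974 genes with 1 other TSS and 80.5% of all genes. Those shares were 38.5% and 62.8% for gt, in the same class. For eve, with 2 other TSSs, they were 24.2% of 1399 such genes and 36.0% of all genes. Span differs too: the median was 3495 bp for the 7 genes and 2144 bp for the 649, which widens the window. A comparison planned in advance took genes in the same decile of span. A best rank as high was reached there by 90.5% for hb, 80.9% for Kr, 82.3% for kni and 63.4% for gt. It was 34.1% for eve, 70.7% for ftz, 47.1% for h and 52.2% for odd. For en it was 29.2% and for wg 58.2%. For all but eve, these shares were above those over all genes.

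**Figure D3:**
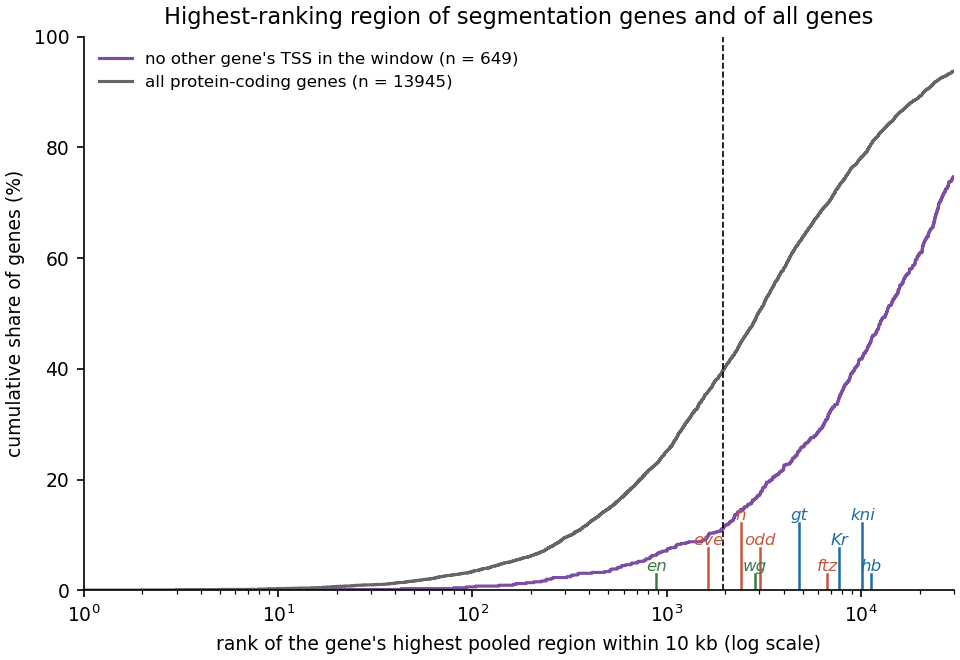
Cumulative share of genes (%) by rank of the highest pooled region within 10 kb (log axis), for the 649 genes with no other TSS in the window and for all 13945 genes, with the 10 segmentation genes as marks on the axis in the colours of their roles. The dashed line is rank 1941, where the curves stand at 11.1% and 39.6%; the curves end below 100% because some genes had no region.

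The nearest thresholded region outside the windows was far from several genes. Its distance from the span was 21.6 kb at hb, 59.3 kb at Kr, 83.0 kb at kni and 39.8 kb at gt. It was 46.2 kb at ftz, 25.8 kb at odd and 48.9 kb at wg. These regions had other genes as the nearest TSS, such as Antp for the one next to ftz and Pex16 for the one next to kni. The count of genes with a thresholded region was 0 within 1 kb, 1 within 5 kb, 2 within 10 kb and 3 within 20 kb. Over all genes those shares were 16.1%, 28.4%, 39.6% and 55.4%.

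A wider list of 42 other segmentation genes gave 21 with a thresholded region in the window, against 39.6% of all genes. Of the 42, 11 had such a region with the gene's own TSS as the nearest. By nearest TSS at any distance it was also 11 of 42 (26.2%), against 11.2% of all genes. A thresholded region in the window was present for 2 of the 10 genes. The 10 had a median span of 3272 bp and a median of 0 other TSSs in the window. The 42 had a median span of 7914.5 bp and a median of 1.5 other TSSs. Over all genes those medians were 2166 bp and 5 other TSSs. The part of span and neighbours in the count of 21 was not tested. The median best rank was 3906 for the 10 and 1908.5 for the 42. Both lists were chosen with results of these data known, so their difference is a description.

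Of the 7 maternal genes in the wider list, 4 had a thresholded region. The region at bcd, the anterior determinant, lay 210 bp upstream and ranked 547 with a signal of 111 (56.9 in replicate 2 and 51.1 in replicate 3). Trl, which encodes GAGA factor, had one at rank 41 with a signal of 318. The regions near osk and nos, genes of the posterior determinant, were nearer to pyd and CG42359.

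Of the 8 gap and head gap genes, 4 had one. That of oc (orthodenticle), 325 bp upstream, ranked 104 with a signal of 212, and that of croc, 222 bp upstream, ranked 704. The best of cnc was nearer to CG46310, with a second at its own TSS at rank 1897, and both of btd were nearer to nej. The best regions of tll, at rank 13738, and of knrl, a paralogue of kni, at rank 15408, stood below those of all 10 genes in the pooled list. The replicates did not keep that place: knrl had 7567 in replicate 2 and 3948 in replicate 3, the last above all 4 gap genes of the 10, and tll had 15398 in replicate 2 and 8824 in replicate 3.

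Of the 10 pair-rule genes, 5 had one. The neighbours slp1 and slp2, forkhead repressors, shared a region at rank 162 with a signal of 185 (82.5 in replicate 2 and 101 in replicate 3). Those of D and ftz-f1, the nuclear receptor that works with Ftz, ranked 1614 and 1835. That of sob, a paralogue of odd, was nearer to CG43815. The best regions of run and prd ranked 7670 and 7072.

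Of the 17 segment polarity genes, 8 had one. The Hedgehog receptor gene ptc, with a region 5302 bp upstream at rank 1001, mid at rank 1002 and the Wnt inhibitor gene nkd at rank 1236, 152 bp upstream, were the nearest genes to theirs. Those of smo, dsh, fz, pan and Wnt4 were nearer to CG17075, CG1737, CG13482, RpS3A and CG31909. The best region of inv, the paralogue beside en, ranked 1982, just past the end of the thresholded list, and that of hh ranked 2569.

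The 58 regions were spread over the pooled list much as all its regions. Their median rank was 14865 and their median signal 25.6, against 25.5 over all 30000 pooled regions and 88.2 over the thresholded ones. Of the 58, 14 (24.1%; 95% Wilson interval 15.0 to 36.5) were among the 10000 highest, against 33.3% of all pooled regions by construction. A q of 0.05 or less was reached by 8 of the 58 (13.8%), against 17.0% of all pooled regions. These were 2 regions each of en and eve and 1 each of gt, h, odd and wg. Regions lay at 2.42 per 10 kb in the windows of the 10 genes and 2.24 per 10 kb over all arms.

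The regions lay between genes at the share that the windows themselves do. Of the 58, 42 (72.4%; 59.8 to 82.2) were intergenic, and 72.7% of the length of the 10 windows lay outside annotated genes. Of all pooled regions, 27.5% were intergenic. Introns held 3 and coding exons held 7. Within 500 bp of the TSS of any protein-coding gene lay 11 (19.0%; 10.9 to 30.9), against 27.3% of all pooled regions. Relative to their genes, 22 lay upstream, 14 inside and 22 downstream. The nearest TSS was that of the segmentation gene for 49 of 58: for 8 of 14 regions at gap genes, 28 of 31 at pair-rule genes and all 13 at segment polarity genes. The 9 others were at hb and eve and lay nearer to a TSS of another gene. Which gene they act on was not tested.

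A share of the regions was found in both replicates. A summit within 200 bp in both replicates was found for 23 of 58 (39.7%; 28.1 to 52.5), against 41.8% of all pooled regions and 99.3% of the thresholded ones. Neither replicate listed 4 of the 58. Of the 14 regions among the 10000 highest, 13 (92.9%) were found in both, against 84.4% of all 10000. The matched regions gave a median log2 ratio of replicate 3 to replicate 2 of 0.09. The SD was 0.60 (n = 23 regions), or 1.52-fold. These ratios were not corrected for the different scales of the lists, and they leave out regions that a replicate did not list. Over all 12541 matched pooled regions the median was 0.22 and the SD 0.59. Replicate 3 was the higher in 13 of the 23. The ratio ran from −1.21 at the region of eve next to CG12134 to 1.10 at the thresholded region of en. A pair of overlapping pooled regions near CG12134 shared the same match and counts as 2 of the 23.

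**Figure D4:**
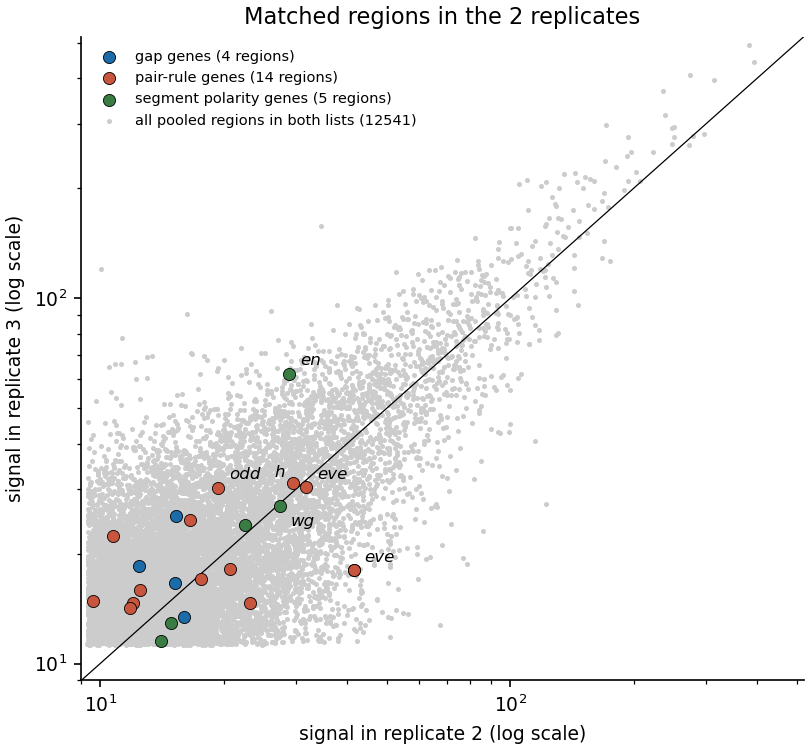
Signal in replicate 2 (horizontal) and replicate 3 (vertical), both on log axes, for the 23 regions of segmentation genes found in both lists, coloured by role, over all 12541 matched pooled regions in grey, with the line of equality. The regions of h and wg lie close to the line, that of en above it with 62.2 in replicate 3, and that of eve next to CG12134 below it with 41.6 in replicate 2.

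The ranks of single genes carried that spread. The best rank in a replicate's own list was 10350 and 8810 for hb in replicates 2 and 3, 7128 and 12937 for Kr, 9589 and 9914 for kni and 10682 and 4348 for gt. It was 1061 and 2781 for eve, 7050 and 5961 for ftz, 2319 and 2085 for h and 6113 and 2795 for odd. It was 2425 and 525 for en and 2768 and 2755 for wg. In both replicates the best ranks of eve, h, odd, en and wg stood above those of the 4 gap genes. For eve this rested on regions nearer to CG12134 and TER94. The best region nearest to its own TSS ranked 15495 in the pooled list, below the best of each gap gene. The order also rested on the window: within 20 kb, hb at 2273 stood above wg at 2831 and odd at 3037 in the pooled list. Of the neighbours in the pooled order, 5 pairs changed places between the replicates, so they are not told apart: en and eve, eve and h, gt and ftz, Kr and kni, and kni and hb. The order h, wg, odd was the same in both replicates, with h and wg at nearly the same rank. The best region of en was among the 1941 highest of replicate 3 and not of replicate 2, and that of eve among the 1941 highest of replicate 2 by the region at CG12134 and not of replicate 3.

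E-boxes were found at a share of these regions that the wider lists also gave within counting error. In the 101 bp centred on the summit, CANNTG was found on either strand in 21 of 58 regions (36.2%; 25.1 to 49.1), against 45.3% of all pooled and 42.6% of thresholded regions. The intervals cover counting error only. The form CAGCTG was found in 3 of 58 (5.17%; 1.77 to 14.1), against 7.97% of all pooled and 10.5% of thresholded regions. These were the thresholded region of en, another 6174 bp upstream of en and the region upstream of odd printed above. Of the 5 regions with CAACTG, 4 were at odd, among them the one 22 bp from its TSS, and the fifth was in the coding exon of h. CACGTG and CATATG were found in none of the 58, which allows a share of up to 6.21% (Wilson), against 1.44% and 3.30% of thresholded regions. The forms are counted apart, and a region can hold several.

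At the best regions themselves, an E-box stood within 50 bp in 6 of 10, against 45.3% of all pooled and 42.6% of thresholded regions. The share at the best regions of other genes was not computed, and 10 regions are too few to set apart from these shares. The one of en held CAGCTG, that of eve CACCTG and CAGATG, that of h CACATG 4 bp from the summit, that of ftz CAAATG and CACCTG, that of kni CAAGTG and that of hb CAAATG. Those of Kr, gt, odd and wg held none within that distance. The motif CAGGTAG, bound by the early activator Zelda, was found in none of the 58, against 0.660% of all pooled regions. GAGAG, a motif of GAGA factor that overlaps none of the others, was found in 5 of 58 (8.62%; 3.74 to 18.6), against 13.9% of all pooled regions. The median GC content of the windows was 50.5% at the segmentation genes, against 46.5% over all pooled and 38.6% over thresholded regions. The part of base composition in these shares was not tested.

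**Figure D5:**
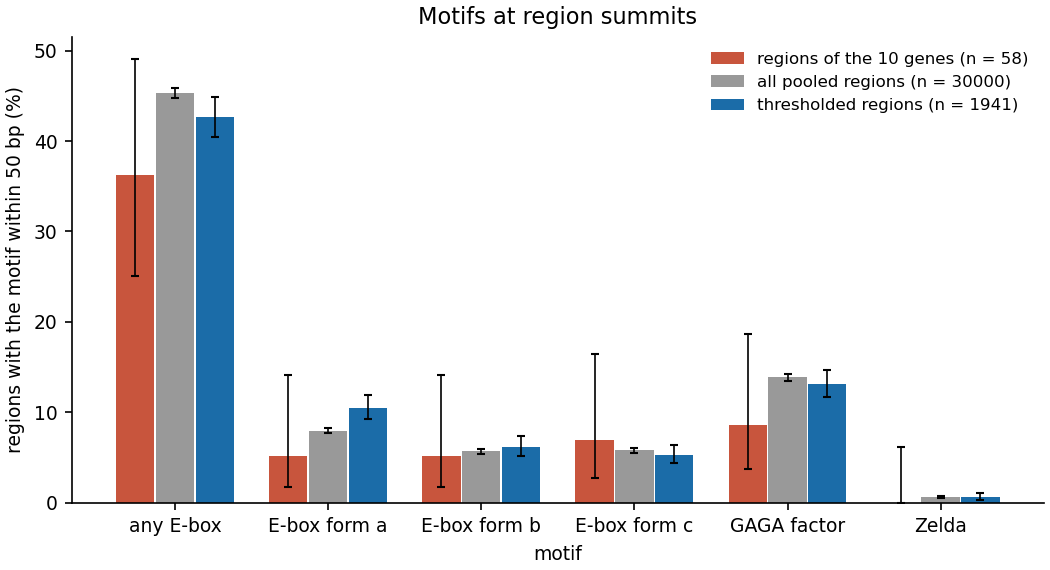
Share of regions (%) with a motif within 50 bp of the summit, for the 58 regions of the segmentation genes, all 30000 pooled regions and the 1941 thresholded regions, with 95% Wilson intervals as error bars. E-box form a is CAGCTG, form b is CAGATG and form c is CACCTG. The bar of the segmentation genes is at 36.2% for any E-box, 5.17% for form a and 0 for the Zelda motif, with intervals that hold the values of the other bars.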

How the data were processed

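Daughterless-GFP was mapped by ChIP-seq in 2 replicates of 1 group of whole embryos. Per the deposited notes, the lists are narrowPeak files from each replicate, or from both pooled, called against a control whose data were not analysed here. The authors deposited for each region a signal, its height over control, and a −log10 q value, which ends at 3.54 in the pooled list. Regions were ranked by that signal. Not given in the sources used here: the caller, the aligner and the threshold on irreproducible discovery rate. The dm3 lists were not used, since no dm3 genome was at hand.

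Gene models were those of Ensembl release 115 on BDGP6.54, and bases were read from the RefSeq Release 6 assembly. The annotation lists h as hry and nos as nanos. A region belonged to a gene when its summit lay in the span or within 10 kb. Regions of replicates were matched to pooled ones by summits within 200 bp. Motifs were sought in 101 bp on both strands. Windows that overlap annotated untranslated regions, and all on arm 2R, were not printed. Shares have 95% Wilson intervals. The analysis used Python 3.11.15, pandas 2.3.3, numpy 2.4.6 and scipy 1.17.1 and was tested on simulated data. No p-value was computed: with 1 group there is no contrast.

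The members and gene lists were chosen with earlier results of these data known. Named are all 10 genes, the genes nearest to their best regions, and other segmentation genes with a thresholded summit in the window. Others (run, prd, tll, knrl, inv, hh and the genes next to distant thresholded regions) were chosen after their values were seen. Alternatives covered the distance to the gene, the list, the matching distance, the motif window and each replicate alone. Assignment by the gene's own nearest TSS and the comparison by neighbouring TSSs were added after the data were seen.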

Additional observations from a re-analysis of the deposited data

How the results depend on the processing

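The count of segmentation genes with a thresholded region, 2 of 10, was 0 within the span or within 1 kb, 1 within 5 kb, 1 with the 1000 highest thresholded regions and 1 with regions nearest to the gene's own TSS, an alternative added after the data were seen. It was 3 within 20 kb and 2 by nearest TSS. With replicate 2 or 3 left out it was 1 each time, with eve in replicate 2 and en in replicate 3. Over all genes the share was 6.53% within the span, 39.1% in replicate 2 and 39.5% in replicate 3. For the 1000 highest regions, and for regions in the window nearest to the gene's own TSS, the share over all genes is not given here. The median best rank of 3906 was 15030.5 within the span, 9547 within 5 kb, 2632.5 within 20 kb and from 3571.5 to 6581.5 with a replicate left out. Within 20 kb, the best rank was 38 for eve, 2273 for hb and 2434 for kni. The share of regions found in both replicates, 39.7%, was 13.8% with summits within 50 bp, 58.6% within 500 bp and 92.9% among the 10000 highest. Within 100 bp of the summit, an E-box was found in 63.8% of regions and CAGCTG in 15.5%, against 36.2% and 5.17% within 50 bp. The wider window searches more sequence. Shares of all pooled and thresholded regions within 100 bp are not given here, so these values cannot be set against those within 50 bp. The count of best regions within 500 bp of their own TSS (1) and the median log2 ratio between replicates (0.09) kept their values within the spread under every alternative tried. No paired analysis was possible because there is 1 group only. Since no depth is known, no floor or interval on a single signal can be given, and regions past rank 30000 are not listed.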
